A study of Mus musculus with 16 samples.

Results

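The regions described here are stretches of open chromatin that lie away from gene starts and carry a consensus AP-1 site but no canonical MyoD1 site. They were found in C2C12 iMyoD1 cells, a polyclonal mouse myoblast line that keeps its own Myod1 gene and also carries an integrated, doxycycline-inducible transgene encoding V5-Halo-tagged MyoD1. Open chromatin was measured by ATAC-seq, which tags DNA that a transposase can reach. All groups came from this line, the no dox controls included, and according to the study only a part of the nuclei express the transgene after induction.

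Doxycycline (+dox, 1 µg/mL) was given for 24 h, and control wells received vehicle (no dox). The wells either stayed in growth medium (GM), in which myoblasts proliferate, or were switched to low-serum medium (DM), in which they differentiate, over the same 24 h. Wells in DM were also seeded more densely than wells in GM, so density and medium cannot be told apart. Each of the 4 groups had 4 libraries labelled as biological replicates, and the study set aside the library numbered 1 in both DM groups for poor quality, which leaves 14 libraries.

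A region is a merged interval of peaks from the 14710 strongest peaks of each of the 14 libraries, ranked by the −log10 p of the peak. Its summit is that of its strongest peak. Of 26213 such regions, 15878 had a summit more than 1 kb from any transcript start. Of these, 5372 (33.8% of the distal regions and 20.5% of all regions) held TGACTCA or TGAGTCA, the same 7-base site read on either strand, within 100 bp of the summit and did not hold CAGCTG there. They are called AP-1 regions below. A further 1418 distal regions held both sites, 2206 held CAGCTG alone and 6882 held neither.

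AP-1 is a dimer of FOS and JUN family proteins that binds this heptamer, also known as the TPA response element. It acts downstream of serum, growth factor and stress signals through MAP kinases, and many enhancers of proliferating cells carry its site. MyoD1 is a basic helix-loop-helix factor that starts the muscle program and binds E-boxes (CANNTG), with CAGCTG as its preferred form. In myoblasts AP-1 activity is associated with proliferation and with restraint of differentiation.

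The sequences below are 201-base windows centred on the summit (GRCm38, the assembly behind mm10, bases from the plus strand of RefSeq's copy of that assembly). They are shown because they span the range of results described further on. Regions are named by the nearest protein-coding transcript start and the distance from it, which implies no regulation of that gene. Capitals mark the AP-1 heptamer. The first pair are among the strongest AP-1 regions, and the last 3 were weaker in DM.
Otud4 +12.3 kb (chr8:79679039-79679239, plus strand): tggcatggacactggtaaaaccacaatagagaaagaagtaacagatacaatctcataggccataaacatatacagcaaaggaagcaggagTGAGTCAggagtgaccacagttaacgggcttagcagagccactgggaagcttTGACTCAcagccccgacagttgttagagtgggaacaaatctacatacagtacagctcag
Trpm6 +49.8 kb (chr19:18890348-18890548, plus strand): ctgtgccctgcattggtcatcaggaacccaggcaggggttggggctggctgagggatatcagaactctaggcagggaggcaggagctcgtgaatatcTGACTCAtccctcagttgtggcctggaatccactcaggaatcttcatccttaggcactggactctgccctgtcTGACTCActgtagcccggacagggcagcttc
Trabd2b -84.7 kb (chr4:114321930-114322130, plus strand): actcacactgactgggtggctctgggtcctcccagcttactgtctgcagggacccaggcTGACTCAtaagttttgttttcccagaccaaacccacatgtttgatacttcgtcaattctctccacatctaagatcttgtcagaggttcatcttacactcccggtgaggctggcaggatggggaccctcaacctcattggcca
Luzp1 -3.1 kb (chr4:136518213-136518413, plus strand): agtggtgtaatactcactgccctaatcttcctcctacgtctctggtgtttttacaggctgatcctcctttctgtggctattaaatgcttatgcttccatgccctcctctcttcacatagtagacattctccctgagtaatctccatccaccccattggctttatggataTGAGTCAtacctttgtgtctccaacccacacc
Ptbp2 -220.6 kb (chr3:120005011-120005211, plus strand): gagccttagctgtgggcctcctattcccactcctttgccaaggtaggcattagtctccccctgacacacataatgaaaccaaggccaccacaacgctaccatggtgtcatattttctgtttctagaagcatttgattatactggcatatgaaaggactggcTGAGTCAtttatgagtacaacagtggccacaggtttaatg

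The next 4 windows also hold CAGGTG, an E-box whose centre differs from that of the preferred MyoD1 form. Here capitals mark both the heptamer and this E-box, which reads CACCTG on the other strand. The regions near Med16, Krt8 and Abcc12 had a peak among the strongest in every DM +dox library and in no DM no dox library, where 1 or 2 libraries still had a weaker deposited peak. In the Sox9 window the E-box and the heptamer share bases.
Med16 -1.4 kb (chr10:79900992-79901192, plus strand): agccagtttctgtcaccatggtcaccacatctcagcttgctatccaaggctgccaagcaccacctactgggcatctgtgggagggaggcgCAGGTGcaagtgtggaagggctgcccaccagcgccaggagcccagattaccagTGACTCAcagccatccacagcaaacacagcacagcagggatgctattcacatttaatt
Krt8 -1.1 kb (chr15:102005447-102005647, plus strand): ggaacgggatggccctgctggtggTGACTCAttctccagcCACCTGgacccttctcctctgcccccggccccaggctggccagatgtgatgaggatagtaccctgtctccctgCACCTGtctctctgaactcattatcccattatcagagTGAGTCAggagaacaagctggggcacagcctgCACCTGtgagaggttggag
Abcc12 +89.0 kb (chr8:86445642-86445842, plus strand): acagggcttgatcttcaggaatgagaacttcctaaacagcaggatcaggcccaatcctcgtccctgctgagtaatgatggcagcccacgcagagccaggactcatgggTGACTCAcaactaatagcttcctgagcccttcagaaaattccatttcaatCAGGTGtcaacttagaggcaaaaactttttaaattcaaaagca
Sox9 -24.0 kb (chr11:112758126-112758326, plus strand): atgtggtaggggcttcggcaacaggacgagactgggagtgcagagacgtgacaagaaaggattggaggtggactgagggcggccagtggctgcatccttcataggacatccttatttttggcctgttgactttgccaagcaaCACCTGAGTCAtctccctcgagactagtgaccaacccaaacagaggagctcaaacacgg

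The kept lists held between 14710 and 58587 peaks, and the genomic background recovered from fold enrichment and p ranged from 0.339 to 1.13 fragments per base, so the libraries differed in depth. GM no dox replicate 1 gave the shortest list and stood apart from the other libraries of its group: 39.4% of its own distal summits carried the heptamer, against 46.2% to 48.5% in the other 3. Lists of equal length were therefore used for measures of presence, except where deposited peaks are named and in the choice of regions tested for strength. As a check of identity, the promoters of Myod1 and of Chrna1, which encodes a subunit of the muscle acetylcholine receptor, had a strong peak in all 14 libraries, and that of Cdh15 (M-cadherin) in 3. Myf5, Des, Itga7 and Pax7 had none. Of 18 promoters of genes that mark fibroblast-lineage, endothelial, leukocyte, neural, adipocyte and epithelial cells, 1 had a strong peak in any library (Pdgfra, in 1 library).

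The median distance of the AP-1 regions to any transcript start was 11.6 kb (25% to 75% range 5.22 to 25.8 kb), beside 11.2 kb for other distal regions, and 138 of them lay over 100 kb away. Introns held 2969 (55.3%), intergenic sequence 2194 (40.8%), exons outside coding sequence 165 and coding exons 44. Other distal regions were 53.4% intronic and 41.9% intergenic. The median width of the AP-1 regions was 537 bp and the median GC content of their 201-base windows was 49.3%, against 542 bp and 51.2% for other distal regions and 64.7% GC for regions within 1 kb of a start. A summit inside soft-masked repeat sequence was found for 379 AP-1 regions (7.06%) and for 6.16% of other distal regions. The AP-1 share of distal regions was between 30.8% and 38.1% on every autosome and was 25.2% on the X chromosome, where 53 AP-1 regions lay.

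The 5372 regions held 6299 heptamers in all, of which 3195 read TGACTCA and 3104 TGAGTCA on the plus strand. A single copy was found in 4534 regions, a pair in 764 and 3 or more in 74, with at most 5 in 1 window. The heptamers gathered toward the summit without peaking on it: the median distance of a heptamer centre from the summit was 36 bp, and the nearest heptamer was within 24 bp in 2031 regions, 25 to 49 bp away in 1748, 50 to 74 bp away in 1057 and 75 to 97 bp away in 536. Regions whose nearest heptamer was within 24 bp had a peak in 6.66 libraries on average, and those at 75 to 97 bp in 7.32.

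**Figure D1:**
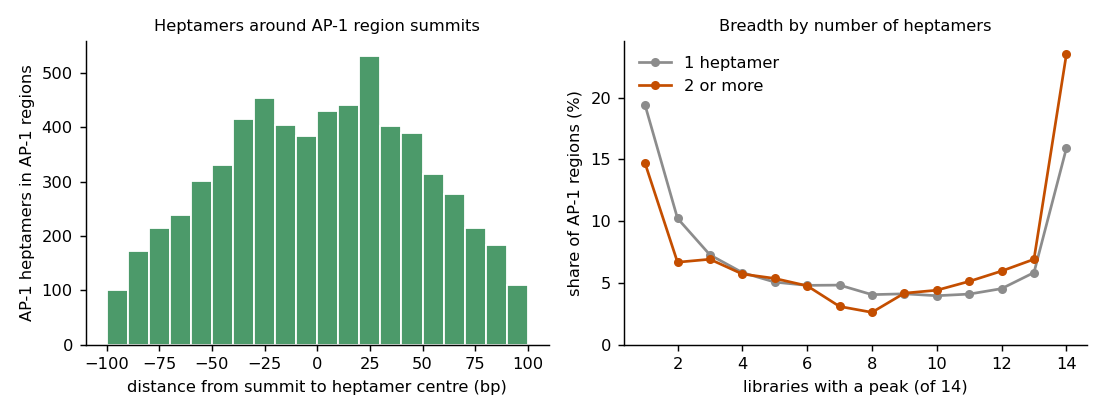
Left, number of heptamers in AP-1 regions by the distance of the heptamer centre from the summit, in bins of 10 bp. Right, share of AP-1 regions (percent) with a peak in a given number of the 14 libraries, for 4534 regions with 1 heptamer (grey) and 838 with 2 or more (orange). Heptamers are most frequent within 50 bp of the summit, and regions with more than 1 heptamer are more often found in all 14 libraries.

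The heptamer itself was found in 29.2% of all 26213 windows, in 8.41% of those within 1 kb of a transcript start and, by definition, in every AP-1 region. A further 12 motifs were searched on both strands in the same windows. The RUNX hexamer TGTGGT, the core of the site for RUNX factors, was in 29.3% of AP-1 regions and 33.4% of other distal regions (23.4% of all regions). The TEAD hexamer GGAATG, bound by the partners of YAP, was in 19.2% and 23.3% (17.0% of all). The GC box GGGCGG was in 5.27% and 9.59% (28.5% of all), and the CRE octamer TGACGTCA, the site of CREB and ATF proteins, in 0.242% and 0.819% (1.55% of all). CAGGTG was in 492 AP-1 regions (9.16%) and in 8.49% of other distal regions (8.64% of all). Of the other E-boxes, CATCTG was in 21.4% and 20.6% (15.6% of all regions). The E-box of MYC and USF proteins, CACGTG, was in 3.31% and 3.46% (5.21% of all). The GATA factor site AGATAA was in 8.49% and 8.11% (5.94% of all). The CCAAT box, bound by NF-Y, was in 22.9% and 22.4% (27.2% of all). The ETS factor site CCGGAAG was in 1.08% and 1.51% (6.94% of all), and the MEF2 decamer in 0.689% and 0.619% (0.5% of all). An E-box of any sequence, CANNTG, was in 66.1% of AP-1 regions, 75.0% of other distal regions and 61.9% of all regions, and it includes the form that the definition removes from the AP-1 regions. E-boxes can share bases with the heptamer.

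The breadth of the AP-1 regions ranged from a single library to all of them. Of the 5372, 918 (17.1%) had a strong peak in all 14 libraries, 579 in 12 or 13, 2873 in 2 to 11 and 1002 (18.7%) in 1 library. The share present in all 14 was 14.6% for regions with CAGCTG alone, 20.1% for those with both sites, 12.9% for those with neither and 35.4% for regions at gene starts. AP-1 regions with 2 or more heptamers (n = 838) were present in 7.99 libraries on average and those with 1 heptamer (n = 4534) in 6.81. In each group the regions with 2 or more were occupied more often: 60.0% against 51.4% in GM no dox, 58.2% against 50.9% in GM +dox, 56.4% against 47.1% in DM no dox and 52.3% against 43.4% in DM +dox (means over libraries). Regions whose summit lay in a repeat were present in 6.27 libraries and the others in 7.05.

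Regions just inside and just outside the limits of the definition are given as a description. AP-1 regions with a start 1 to 2 kb away (n = 390) had a strong peak in 6.55 libraries on average, and 216 regions with the heptamer and no CAGCTG that missed the distance limit by up to 0.5 kb had one in 7.65. Distal regions without CAGCTG whose nearest heptamer lay just beyond 100 bp but within 150 bp (n = 618) had a peak in 7.09 libraries, against 7.32 for AP-1 regions with the nearest heptamer at 75 to 97 bp.

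The strength of a region in a library is given below as the percentile of its −log10 p among that library's 14710 strongest peaks, with 0 where it had no such peak. By the mean over the 14 libraries the strongest AP-1 regions were Zfp827 +29.9 kb (mean percentile 99.9), Adgrg3 -5.1 kb (99.8), Otud4 +12.3 kb (99.7), Trpm6 +49.8 kb (99.5) and Elfn2 +1.6 kb (98.8). Trpm6 encodes a magnesium channel and Otud4 a deubiquitinase, and the Adgrg3 region sits in an intron of Adgrg1, an adhesion receptor. Of these 5 regions, 4 held 2 heptamers and Adgrg3 -5.1 kb held 1.

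AP-1 regions were counted by the nearest coding gene for 7 gene lists. Of the 10 genes that encode AP-1 subunits, 5 were the nearest coding gene of 7 AP-1 regions, led by Jun -53.3 kb (present in all 14 libraries, mean percentile 65.1) and Fosb -6.9 kb (12 libraries, 46.9). Of 27 textbook AP-1 targets, 16 had 31 AP-1 regions, present in 9.06 libraries on average, among them Krt18 +17.7 kb (mean percentile 83.7), near a keratin gene.

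Genes for focal adhesion and the actin cytoskeleton (21 of 33 genes, 51 AP-1 regions) were led by Ptk2 -11.8 kb (mean percentile 96.7), near the gene for focal adhesion kinase, and Myh9 +5.8 kb (84.1), in the gene for non-muscle myosin heavy chain IIA. Genes for extracellular matrix and TGF-beta (23 of 32 genes, 60 AP-1 regions) were led by Thbs2 +59.8 kb (95.9) and Col4a1 +37.3 kb (79.3), near a thrombospondin and a basement membrane collagen. Growth factor signalling genes (13 of 19 genes, 35 AP-1 regions) were led by Myc +341.2 kb (94.7) and Epha2 -14.2 kb (86.0). Muscle genes (5 of 32 genes, 7 AP-1 regions beside 20 other distal regions) were led by Mef2a -18.1 kb (73.4) and Mef2a +6.0 kb (18.1). The 7 regions were present in 4.71 libraries on average. In a list of 5 adhesion genes, Cdh23 (a cadherin) and Itga3 (an integrin) had 1 AP-1 region each, with mean percentiles of 14.1 and 2.13. AP-1 regions made up 41.3% of the distal regions nearest to the textbook targets, 34.2% for focal adhesion, 30.2% for matrix, 35.7% for growth factors, 31.8% for AP-1 subunits, 25.9% for muscle genes and 22.2% for the 5 adhesion genes, beside 33.8% of all distal regions.

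In all, 3515 coding genes were nearest to an AP-1 region, 2403 of them to 1 only and 66 to 5 or more. The genes with the most were Pde4d, a cyclic AMP phosphodiesterase (13 AP-1 regions), Runx1, a RUNX family factor (11), Abcc12, an ABC transporter (10), and Lpp, a focal adhesion protein (10), followed by a 6-way tie at 8 among Asap1, Dusp10, Gse1, Irf2bp2, Myc and Sox9. Around Runx1 the AP-1 regions were occupied at a mean of 68.2% in GM no dox, 72.7% in GM +dox, 48.5% in DM no dox and 51.5% in DM +dox. Around Sox9 the values were 90.6%, 78.1%, 66.7% and 54.2%, and around Pde4d 40.4%, 32.7%, 25.6% and 20.5%. Others did not fall from GM to DM without dox: around Abcc12 the values were 52.5%, 60.0%, 56.7% and 43.3%, and around Myc 62.5%, 53.1%, 70.8% and 58.3%. Of these 10 genes, 7 had a lower mean in DM than in GM without dox and 3 a higher one, and with dox 8 were lower and 2 higher.

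Occupancy is the share of the 5372 AP-1 regions with a peak among a library's strongest. It was 53.9%, 56.6%, 52.2% and 48.2% in GM no dox replicates 1 to 4 (mean 52.7% ± 3.51, SD, n = 4) and 58.7%, 57.1%, 50.04% and 42.4% in GM +dox (52.0% ± 7.47, SD, n = 4). It was 49.7%, 52.5% and 43.4% in DM no dox replicates 2 to 4 (48.5% ± 4.68, SD, n = 3) and 48.2%, 46.4% and 39.7% in DM +dox (44.8% ± 4.46, SD, n = 3). Replicate 4 was the lowest library of every group, and the ranges of all groups overlapped. At regions within 1 kb of a start, replicate 4 was the highest library of every group (75.3%, 76.3%, 77.3% and 79.3%, in the same order). In bulk libraries, fewer nuclei with an open region and a less open region in each nucleus cannot be told apart.

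The difference in means with dox in GM was -0.68 percentage points, made up of 2.63 among replicates 1 and 2 and -3.99 among replicates 3 and 4. With dox in DM it was -3.76 points (-1.51 in replicate 2 and -4.89 in replicates 3 and 4). DM minus GM was -4.17 points without dox and -7.26 points with dox. DM replicate 2 alone minus the mean of GM replicates 1 and 2 gave -5.53 and -9.67. Within replicates 3 and 4 the differences were -2.23 and -3.13. With the replicate number as a block, as the mean of differences between same-numbered libraries, the DM to GM differences were -3.78 and -5.03. Pair by pair, the difference with dox in DM was -1.51, -6.12 and -3.65 points in replicates 2 to 4, and DM minus GM with dox was -8.84, -3.63 and -2.62, so all 3 pairs were lower in each. DM minus GM without dox was -6.87, 0.35 and -4.82 points, and the dox pairs in GM gave 4.80, 0.46, -2.14 and -5.84 in replicates 1 to 4, with pairs on either side of 0. The ranges of the groups compared overlapped in all 4, and no p is given, since the regions were chosen with earlier results of these data known.

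The same comparisons in the other distal classes are given for contrast. For regions with CAGCTG alone the 4 differences, in the same order, were 5.76, 7.10, 5.23 and 6.58 percentage points. For regions with both sites they were 4.39, 2.30, 5.09 and 3.00 points. All 8 of these were above 0, and the ranges of the groups overlapped in each. For regions with neither site they were -0.95, -1.84, -4.61 and -5.49, the same signs as for the AP-1 regions. For regions within 1 kb of a start they were -0.61, 1.60, 3.68 and 5.88, and for all distal regions 0.55, -0.875, -2.23 and -3.65. The ranges of the groups overlapped in each of these. All lists had the same length, so a class with fewer strong peaks leaves more places to the others. The classes rest on the sequence at the summit of the strongest peak. For 56.55% of AP-1 regions that peak came from a DM +dox library, and its part in these differences was not tested. The share of AP-1 regions among all occupied distal regions was 37.3% ± 1.55 in GM no dox, 36.2% ± 1.74 in GM +dox, 35.9% ± 1.62 in DM no dox and 33.8% ± 1.86 in DM +dox (SD, n = 4, 4, 3 and 3), with overlapping ranges. Of each library's own distal summits, means of 45.6%, 46.0%, 46.4% and 45.9% held the heptamer, in the same order. The heptamer without CAGCTG was in 36.9%, 36.4%, 36.2% and 34.4%, and the ranges overlapped for both. CAGCTG was in 20.0%, 22.4%, 24.0% and 27.7%, with DM above GM in both dox groups without overlap. The CAGCTG share was also higher with dox in DM, by 3.64 points and without overlap, while with dox in GM the ranges overlapped.

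**Figure D2:**
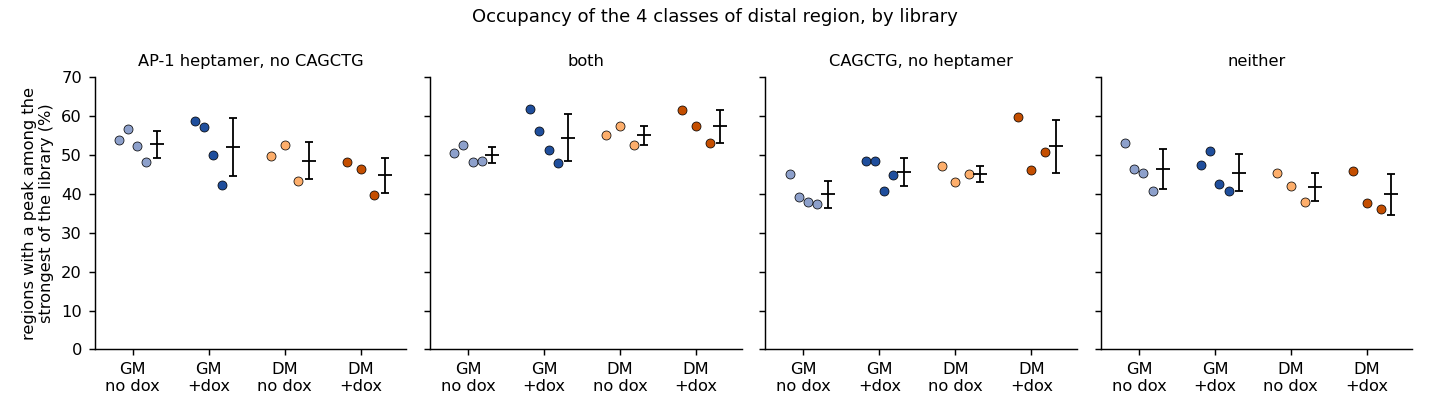
Occupancy in percent (vertical axis) by group for the 4 classes of distal region. Each point is 1 library, and the bar beside each group is its mean ± SD (n = 4 in GM, 3 in DM). AP-1 regions have means of 52.7%, 52.0%, 48.5% and 44.8%, with overlapping groups. Regions with CAGCTG alone have their lowest mean in GM no dox, and their groups also overlap in each of the 4 comparisons.

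Differences in strength were then tested region by region. Each deposited peak has a fold enrichment over local background, a ratio, whose log2 was quantile-normalised and fitted with limma over the 11011 regions that had a deposited peak in all 14 libraries. Of the AP-1 regions, 1978 (36.8%) could be tested. In this fit a call is an adjusted p (Benjamini-Hochberg over all 11011 regions) below 0.05. The shortest list, GM no dox replicate 1, limited the set: without it 15214 regions, 2597 of them AP-1 regions, could be tested. Libraries with the same replicate number deviated together, so the result of a second fit with the replicate number as a block follows each count.

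With dox in GM, 0 AP-1 regions were called higher and 0 lower, as were 0 of all regions (0.0% each way), and with the block the counts were again 0 and 0 (0.0% of all regions each way). At an unadjusted p under 0.05 there were 138 AP-1 regions and 675 regions in all. The median log2 difference was -0.03 over the 1978 AP-1 regions and 0.00 over all regions, and 821 of the 1978 were above 0. Over the 2302 tested distal regions with neither site the median was -0.04.

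With dox in DM, limma again called 0 AP-1 regions in either direction (0.0% of all regions higher and 0.0% lower), with 173 AP-1 regions and 738 regions in all at an unadjusted p under 0.05. The median log2 difference was -0.03, against 0.00 over all regions and -0.03 over distal regions with neither site. The block gave 1 AP-1 region higher (0.0506% of those tested, beside 0.0182% of all regions) and 3 lower (0.152%, beside 0.0727%). The higher one was nearest to Fgf1, a fibroblast growth factor gene (log2 difference 0.92, SE 0.17, limma adjusted p = 0.0235, 0.333 without the block). The lower ones included Itgb1 -18.7 kb, near the gene for integrin beta 1 (log2 difference -0.81, SE 0.15, limma adjusted p = 0.0235, 0.442 without the block). The difference in dox response between media, tested with limma's interaction term, was called for 0 AP-1 regions in either direction (0.0% and 0.0% of all regions), with 59 AP-1 regions and 243 regions in all at an unadjusted p under 0.05.

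Between DM and GM without dox, 8 AP-1 regions were called lower and 0 higher, 0.404% and 0 of those tested, beside 0.236% of all regions lower and 0.0272% higher. The block gave 34 lower and 9 higher, beside 0.899% and 0.309% of all regions, and included all 8. The median log2 difference was -0.06 over AP-1 regions and 0.01 over all regions, and 779 of 1978 AP-1 regions were above 0. The 712 tested regions with CAGCTG alone had a median of 0.01, and the 2302 with neither site had -0.05 with 12 called lower. The count depended on single libraries. Without DM no dox replicate 3 it was 1 lower, beside 0.00861% of all regions. It was 2 lower without GM no dox replicate 2 and 3 lower without GM +dox replicate 1, each beside 0.0545% of all regions. Without GM no dox replicate 4 it was 18 lower and 2 higher, beside 0.363% and 0.163%. Without GM no dox replicate 1, which stood apart, it was 3 lower and 3 higher (0.116% each way), beside 0.046% and 0.0526% of all regions. The calls then no longer lay on 1 side, and the median log2 difference over AP-1 regions was -0.03.

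The largest of these differences was at Trabd2b -84.7 kb, near a gene for a protease that inactivates Wnt proteins. Its deposited fold enrichment was 13.5, 21.4, 11.4 and 19.2 in GM no dox and 8.70, 5.30 and 11.2 in DM no dox. Every GM library was above every DM library (log2 difference -1.04, SE 0.20, limma adjusted p = 0.0207). With dox the fold enrichment was 19.2, 24.0, 15.3 and 14.01 in GM and 19.9, 9.06 and 7.48 in DM, where replicate 2 of DM overlapped the GM libraries.

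Mex3a -10.4 kb, near a gene for an RNA-binding protein, had a fold enrichment of 8.96, 20.5, 8.17 and 11.6 in GM no dox and 6.29, 4.84 and 7.41 in DM no dox, again without overlap (log2 difference -1.01, SE 0.20, limma adjusted p = 0.036). Luzp1 -3.1 kb, in an intron of a gene for an actin- and centrosome-associated protein, had 10.05, 19.6, 9.82 and 16.1 in GM no dox and 6.95, 4.89 and 10.8 in DM no dox (log2 difference -0.99, SE 0.17, limma adjusted p = 0.0112). The GM and DM values of Luzp1 overlapped before normalisation, since DM replicate 4 was above GM replicates 1 and 3.

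The other 5 called lower were near Cxcr4 (+83.3 kb), the receptor of the chemokine CXCL12, Tacc1 (-48.3 kb), a microtubule-associated protein, Erc2 (+5.8 kb), a presynaptic scaffold protein, Mcph1 (+16.1 kb), a regulator of chromosome condensation, and Amotl2 (+47.0 kb), an angiomotin that binds YAP. Their log2 differences ranged from -0.90 at Mcph1 to -0.79 at Cxcr4, with limma adjusted p from 0.00555 to 0.0479. All 8 regions had a deposited peak in each of the 14 libraries, which the fit required of every region tested.

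Between DM and GM with dox, 2 AP-1 regions were called lower and 0 higher, beside 0.0454% of all regions lower and 0.0% higher. The block gave 9 lower and 1 higher, beside 0.282% and 0.0636% of all regions, and included both. The median log2 difference was -0.05 over AP-1 regions and 0.01 over all regions. Over the 2302 tested distal regions with neither site it was also -0.05, with 2 called lower. The count of 2 fell to 0 without DM +dox replicate 4, to 1 without any of GM +dox replicates 1 to 3, DM +dox replicate 3 or GM no dox replicate 2, and was 4 without GM no dox replicate 1.

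Sox9 -24.0 kb, near the gene for a chondrogenic transcription factor, had a fold enrichment of 18.9, 20.4, 13.4 and 14.04 in GM +dox and 11.7, 8.31 and 6.58 in DM +dox, with every GM library above every DM library (log2 difference -1.01, SE 0.15, limma adjusted p = 0.00297). Without dox it had 6.58, 18.9, 10.3 and 16.6 in GM and 7.30, 8.24 and 9.94 in DM, where GM replicate 1 was the lowest library, and the block called it lower there too (log2 difference -0.63, SE 0.15, limma adjusted p = 0.0313). Ptbp2 -220.6 kb, whose nearest coding gene encodes a splicing regulator, had 20.0, 21.8, 14.1 and 12.4 in GM +dox and 14.7, 9.43 and 8.46 in DM +dox, with DM replicate 2 inside the GM range (log2 difference -0.79, SE 0.15, limma adjusted p = 0.0315). The 1 region that the block called higher was Mical2 -11.5 kb, near a gene for an actin-oxidising enzyme (log2 difference 0.80, SE 0.14, limma adjusted p = 0.0105, 0.28 without the block).

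**Figure D3:**
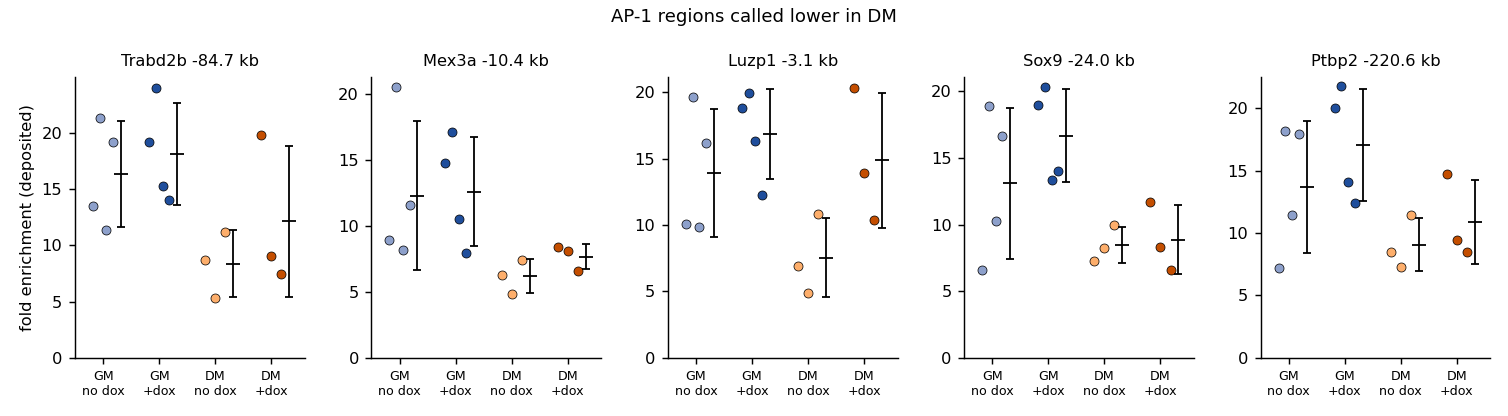
Deposited fold enrichment over local background (vertical axis, a ratio) by group for the 5 AP-1 regions named as called lower in DM. Points are libraries, bars beside them the mean ± SD (n = 4 in GM, 3 in DM). In Trabd2b -84.7 kb and Mex3a -10.4 kb the DM no dox libraries lie below all GM no dox libraries, and in Sox9 -24.0 kb the DM +dox libraries lie below all GM +dox libraries.

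None of the 14 to 21 tested AP-1 regions near textbook targets, focal adhesion genes or matrix genes was called in any comparison by the fit without the block, nor were those near AP-1 subunits (3 tested), muscle genes (2), growth factor genes (11) or the 5 adhesion genes (1 tested). With the block, Itgb1 -18.7 kb of the focal adhesion list was called lower with dox in DM, as given above, and lower in DM than in GM with dox (log2 difference -0.90, SE 0.14, limma adjusted p = 0.00279, 0.081 without the block). Without dox, the block called lower in DM Thbs1 -244.3 kb of the matrix list, whose gene encodes a thrombospondin (log2 difference -0.68, SE 0.15, limma adjusted p = 0.0161, 0.0517 without the block). In the same comparison it called lower Fgfr1 -47.9 kb of the growth factor list, near a fibroblast growth factor receptor gene (log2 difference -0.45, SE 0.11, limma adjusted p = 0.0446, 0.0887 without the block). Between DM and GM without dox the medians of these 7 lists, in the same order, were 0.02, -0.06, -0.02, -0.25, -0.06, -0.13 and -0.39 on the log2 scale, beside -0.06 over all tested AP-1 regions.

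Turnover was also read from all-or-none regions, which have a strong peak in every library of 1 group and in none of the other. Lists of equal length tie the 2 directions together over all regions, so shares are read against those of all regions with a peak in either group. With dox in GM, 5 of 4777 AP-1 regions were gained (0.105%, beside 0.163% of all regions) and 4 were lost (0.0837%, beside 0.124%). The gained ones were led by Syt15 +15.1 kb, Fech -3.2 kb and Atxn1 +51.5 kb and the lost ones by Dkk3 +20.6 kb, Tmem266 +29.0 kb and Errfi1 -10.6 kb. The 3 lost regions still had weaker deposited peaks in all 4 GM +dox libraries, so there the rank of the peak changed and its presence did not.

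With dox in DM, 33 of 4106 AP-1 regions were gained (0.804%, beside 0.824% of all regions) and 51 were lost (1.24%, beside 0.787%). Over all deposited peaks, whose number was higher in DM +dox, 104 of 5330 were gained (1.95%, beside 1.32% of all regions) and 1 was lost (0.0188%, beside 0.00386%), so the direction of the balance depended on the list length. The gained regions with the highest rank in DM +dox were Med16 -1.4 kb, in an intron of a Mediator subunit gene, Krt8 -1.1 kb, near a keratin gene, and Abcc12 +89.0 kb, and all 3 held CAGGTG. In the DM +dox libraries the fold enrichment of the Med16 region was 23.6, 17.5 and 18.5, and in DM no dox it was 7.17, no peak and 10.7. For Krt8 it was 19.0, 16.3 and 12.8 against no peak in 2 libraries and 7.24 in replicate 4. The Abcc12 region also had strong peaks in all 4 GM +dox and 2 GM no dox libraries. The lost regions were led by Ly96 +102.5 kb, near the gene for the TLR4 partner MD-2, Hmga2 -151.8 kb, near a chromatin protein gene, and Dynap -9.0 kb, and all 3 kept a deposited peak in every DM +dox library.

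Between DM and GM without dox, 48 of 4842 AP-1 regions were gained in DM (0.991%, beside 0.984% of all regions) and 66 were lost (1.36%, beside 1.04%). Those gained were led by Stra6l +2.9 kb, Gfpt2 +17.2 kb, near an enzyme gene of the hexosamine pathway, and Prl7d1 -13.8 kb. Those lost were led by Luzp1 -3.1 kb, Oaf -22.2 kb and Tacc1 -48.3 kb, of which the first and the last were also called by limma. Between DM and GM with dox, 39 of 4407 were gained (0.885%, beside 1.11%) and 85 were lost (1.93%, beside 1.1%). Over all deposited peaks, 24 of 5366 were gained (0.447%, beside 0.395%) and 9 were lost (0.168%, beside 0.115%). Here too the direction of the balance depended on the list length. Among the strong peaks, the gained regions were led by Zfp330 -4.0 kb, Psmc6 -4.1 kb and Myc +582.2 kb. The lost ones were led by Trabd2b -84.7 kb, Ephb2 +1.7 kb, in an intron of an ephrin receptor gene, and Ppargc1b +39.0 kb, in an intron of a metabolic coactivator gene. Among regions with CAGCTG alone, gains were 2.94% and losses 0.945% in this last comparison. Regions with neither site also had more losses than gains in 3 of the 4 comparisons. With dox they gained 0.235% and lost 0.201% in GM, and gained 1.03% and lost 1.37% in DM. Between DM and GM they gained 1.2% and lost 1.7% without dox, and gained 1.41% and lost 1.59% with dox.

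The AP-1 regions did not move as a single block. For each of the 12 motifs, the occupancy of AP-1 regions without the motif was subtracted from that of AP-1 regions with it, within each library, which removes differences between libraries that both sets share. CAGGTG gave the widest spread between DM +dox and the other groups among motifs present in over 100 AP-1 regions. This contrast was picked after its values were seen and carries no test. The 492 regions with CAGGTG were occupied less than the other 4880 in GM no dox (-2.74, -14.6, -8.66 and -15.48 percentage points in replicates 1 to 4) and in GM +dox (-11.2, -14.7, -11.4 and -9.95 points). They were also occupied less in DM no dox (-4.17, -4.13 and -6.82 points). In DM +dox they were occupied more (5.99, 9.77 and 4.13 points). All 11 libraries of the other groups were below 0 and all 3 DM +dox libraries above it.

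In levels, the occupancy of regions with CAGGTG was 43.3% ± 7.09 in GM no dox, 41.3% ± 6.45 in GM +dox, 43.97% ± 6.04 in DM no dox and 50.8% ± 6.39 in DM +dox, and that of regions without it was 53.7% ± 3.42, 53.1% ± 7.59, 49.01% ± 4.55 and 44.2% ± 4.31 (SD, n = 4, 4, 3 and 3). With dox in DM the former differed by 6.84 points (7.72 in replicate 2 and 6.40 in replicates 3 and 4) and the latter by -4.83 points (-2.44 and -6.02). With dox in GM the differences were -1.98 and -0.55 points.

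The summit of a region was taken from its strongest peak, which came from a DM +dox library in 73.98% of regions with CAGGTG and 54.8% of those without, so each library's own summits were read as well. Among a library's own distal summits with the heptamer and no CAGCTG, the share with CAGGTG was 8.69%, 6.89%, 8.13% and 6.34% in GM no dox, 7.71%, 6.86%, 6.91% and 7.06% in GM +dox, 9.15%, 8.77% and 8.52% in DM no dox and 10.4%, 11.3% and 10.3% in DM +dox. All DM +dox libraries were above all others, while the other groups overlapped except that DM no dox was above GM +dox. Distal regions with neither the heptamer nor CAGCTG showed the same order: those with CAGGTG were occupied less than those without in all 11 other libraries and more in all 3 DM +dox libraries, by 7.60, 5.20 and 6.23 points. The median GC content was 51.2% in AP-1 regions with CAGGTG and 48.8% in those without, and its part in the difference was not tested.

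Region by region the CAGGTG subset gave no called change with dox. Of its 492 regions 165 were tested, 0 were called with dox in either medium, and the median log2 difference with dox in DM was -0.01, against -0.03 for the 1813 tested regions without CAGGTG. Of the 33 AP-1 regions gained with dox in DM, 11 held CAGGTG (2.72% of the 405 with a peak in either group, against 0.594% of 3701 without CAGGTG), and of the 51 lost, 2 did.

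**Figure D4:**
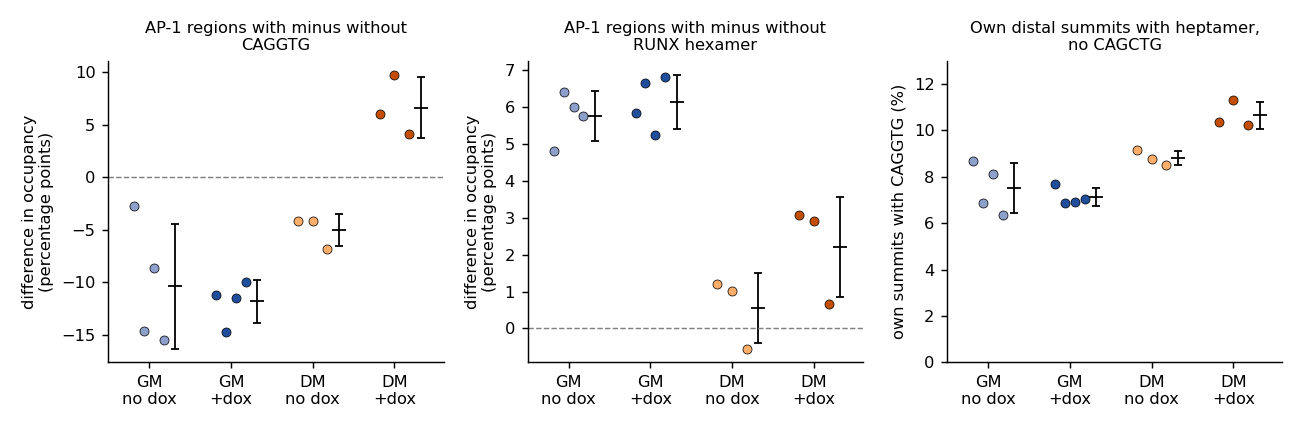
Left and middle, occupancy of AP-1 regions with CAGGTG (left) or the RUNX hexamer (middle) minus that of AP-1 regions without it, in percentage points, by group. Right, percent of each library's own distal summits with the heptamer and no CAGCTG that also hold CAGGTG. Points are libraries and bars the mean ± SD (n = 4 in GM, 3 in DM). The CAGGTG difference is above 0 only in the 3 DM +dox libraries, and the RUNX difference is above 4 points in all 8 GM libraries and at most 3.07 in the DM libraries.

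For the RUNX hexamer the difference lay between the media, a contrast that was also picked after its values were seen. AP-1 regions with it (n = 1572) were occupied more than those without by 4.82, 6.42, 6.004 and 5.76 percentage points in GM no dox and by 5.85, 6.66, 5.25 and 6.83 points in GM +dox. In DM no dox the differences were 1.20, 1.01 and -0.55 points, and in DM +dox 3.07, 2.92 and 0.65. Every GM library was above every DM library of the same dox group. Distal regions with neither the heptamer nor CAGCTG showed the same order between media, so it was not particular to the AP-1 regions. There the mean differences were 3.63 points in GM no dox, 3.18 in GM +dox, -0.09 in DM no dox and -1.57 in DM +dox. Again every GM library was above every DM library of the same dox group. The share of own summits with the RUNX hexamer was 30.8% ± 0.99 in GM no dox, 31.5% ± 1.20 in GM +dox, 28.9% ± 0.31 in DM no dox and 30.04% ± 0.17 in DM +dox (SD, n = 4, 4, 3 and 3), with DM below GM in both dox groups without overlap. This share was also higher with dox in DM, by 1.16 points and without overlap. Of the 8 AP-1 regions called lower in DM without dox, 4 held the RUNX hexamer, as did both called lower with dox, beside 31.6% of the 1978 tested AP-1 regions.

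Of the 12 motifs, the with-minus-without difference did not overlap between groups for 1 motif with dox in GM (MEF2, which only 37 AP-1 regions held), 1 with dox in DM (CAGGTG), 3 between DM and GM without dox (RUNX, MEF2 and the E-box with a TC centre) and 5 between DM and GM with dox (RUNX, MEF2, CAGGTG, the E-box with a CG centre and E-boxes of any sequence). The TEAD hexamer, the GC box, the GATA hexamer, CCAAT, the ETS site and the CRE octamer overlapped between groups in all 4 comparisons.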

How the data were processed

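ATAC-seq peak lists of 16 libraries were used. Per the study's methods, the authors ran nf-core/atacseq against mm10 and removed blacklisted regions. The deposited files are narrow peak lists, 1 per library, and the labels name MACS2. The deposited fold enrichment over local background (a ratio) and the deposited −log10 p and −log10 q are the authors' values per peak. No read counts were used, so depth was estimated from each list's background.

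Peaks were merged by overlap of at least 1 bp after taking the 14710 strongest of each of 14 libraries. Distances use GENCODE M21, and sequences RefSeq's GRCm38. Log2 fold enrichment was quantile-normalised and fitted with limma 3.58.1 in R 4.3.3 (4 groups, moderated variance with trend, Benjamini-Hochberg over 11011 regions). The fit was tested on simulated data. Whether replicate numbers pair the libraries was checked as the correlation of same-numbered libraries' deviations from their group means: it ranged from 0.106 to 0.465 and was above 0.1 in every pair of the 4 comparisons, so blocked values stand beside the main ones. The labels do not say what a number shares.

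The AP-1 regions, gene lists, motifs and tests were chosen with earlier results of these data known. The regions named are the 5 strongest, the 3 largest called and the 3 highest-ranked all-or-none regions per comparison and direction, and 2 per gene list, plus the 5 genes with the most regions. A region that this rule names for the textbook targets is not reported here. Further regions called with or without the block, the motif subsets and their alternatives were picked after their values were seen. Alternatives covered normalisation, the value tested, list length, ranking, missing peaks, the left-out libraries, single libraries, the block, a 50 bp window and a 5 kb distance limit. Motif matches are exact and say nothing of binding.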

Additional observations from a re-analysis of the deposited data

How the results depend on the processing

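Counts below are AP-1 regions, higher and lower together. With dox, limma's calls stayed at 0 in GM under all alternatives and in DM under all but the replicate block (4), and the interaction stayed at 0. Between DM and GM without dox, where 8 were called (0.404% of those tested, beside 0.263% of all regions), the replicate block gave 43, median centring 18, −log10 p in place of fold enrichment 39, missing peaks set to the lowest value 21, all 16 libraries 2 and only regions strong in every library 1. The shares were 2.17%, 0.91%, 1.97%, 0.391%, 0.101% and 0.109% of tested AP-1 regions, beside 1.21%, 0.509%, 1.16%, 0.229%, 0.0454% and 0.033% of all tested regions. With dox, where 2 were called (0.101%, beside 0.0454%), these gave 10, 10, 48, 70, 1 and 0 (0.506%, 0.506%, 2.43%, 1.3%, 0.0506% and 0, beside 0.345%, 0.254%, 1.26%, 1.13%, 0.0545% and 0), and a heptamer within 50 bp gave 0. Leaving out single libraries gave 1 to 20 calls without dox and 0 to 4 with dox. The ends of the range without dox were 0.0469% and 1.01% of tested AP-1 regions, beside 0.00861% and 0.527% of all tested regions. With dox they were 0.0% and 0.154%, beside 0.0181% and 0.105%. The cause was not tested.

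All-or-none counts were 9 and 84 for dox in GM and in DM, and 114 and 124 for DM against GM, first without and then with dox. All deposited peaks gave 4 for dox in GM and 67 and 33 for the medium. The 4 were all gains (0.0749%, beside 0.142% of all regions). For the medium without dox, gains were 0.392% and losses 0.858%, beside 0.287% and 0.474% of all regions. With dox they were 0.447% and 0.168%, beside 0.395% and 0.115%, so the balance was the reverse of that among the strong peaks. For the other alternatives below, shares over all regions were not computed, so those counts are not read as results about AP-1 regions. A list length of 7355 gave 5, 48, 66 and 56, and ranking by fold enrichment gave 14 for dox in GM. Without 1 library, which relaxes the rule, the ranges were 15 to 44, 142 to 242, 143 to 265 and 160 to 268.

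The occupancy differences of -0.68, -3.76, -4.17 and -7.26 percentage points depended on list length. Over all deposited peaks, which follow depth and list size, those with dox were 15.3 in GM and 17.2 in DM, and DM against GM with dox was 0.45. All 16 libraries, including a list of 1287 peaks, gave 6.79 for dox in DM and -15.5 for DM against GM without dox. Leaving out single libraries gave -2.90 to 2.55, -6.34 to -1.24, -6.17 to -1.60 and -10.5 to -4.73. With the replicate block the dox differences were the same, and a 50 bp window turned the GM one to 0.63.

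The CAGGTG difference between DM +dox and DM no dox, 11.7 points, was 13.4 for sites not overlapping a heptamer, 8.59 when ranked by fold enrichment, 5.86 at a list length of 7355, 3.91 over all deposited peaks and 10.1 to 12.9 without single libraries. The RUNX difference between DM and GM without dox, -5.20 points, was -5.61, -2.27 and -1.80 under ranking by fold enrichment, the shorter list and all deposited peaks. These were chosen after seeing the data.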
